A study of Mus musculus with 8 samples.

Results

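Connexins are the subunits of gap junctions, and the 6 connexin genes *Gjd2*, *Gjc1*, *Gja1*, *Gjb6*, *Gjb1* and *Gjc3* were examined in ribosome-associated mRNA of PV+ interneurons. They were chosen by name as the connexins of neurons, astrocytes and oligodendrocytes, and are 6 of 45706 genes in the deposited tables, which hold 20 connexin genes. PV+ interneurons are fast-spiking inhibitory cells of the cerebral cortex that express parvalbumin. All mice had the genotype PvalbFlp/+;Neurod6Cre/+ and had received the AAV vector flox-fdio-HA-RPL10a-T2A-myc-hM3Dq in the primary somatosensory cortex (S1), on postnatal day 1 per the labels. The virus carries a tagged ribosomal protein, through which ribosomes are pulled down, and the receptor hM3Dq, which raises the activity of a neuron when its ligand clozapine-*N*-oxide (CNO) is given. Its synapsin promoter is active in neurons, Flp from the *Pvalb* locus turns it on, and Cre from the *Neurod6* locus turns it off in pyramidal cells. At postnatal day 42 to 70 (44 to 70 in the methods of the study), mice were given 5 injections within about 48 h, of 1 mg/kg CNO in 4 samples or of vehicle in the other 4, and each sample pooled tissue from 4 brains. Both groups carried hM3Dq, and RNA from before the pulldown was not analysed here, so that a level is not an enrichment. Total counts per sample ranged from 44064161 to 49413273. All 6 connexins passed the filter on low counts, with between 78 (*Gjd2*, vehicle replicate 1) and 3271 (*Gja1*, CNO replicate 2) estimated reads per sample.

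Hemichannels made of connexins dock between adjoining cells and form a channel for ions and small molecules. Connexin 36 (Cx36), encoded by *Gjd2*, is the main connexin of electrical synapses between neurons, and cortical PV+ interneurons are known for being coupled in this way. Cx45 (*Gjc1*) is found in some neurons and also in cells of blood vessels. Cx43 (*Gja1*) and Cx30 (*Gjb6*) join astrocytes, whereas Cx32 (*Gjb1*) and Cx29 (*Gjc3*) belong to oligodendrocytes, the cells that make myelin.

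The mRNA of the glial connexins was more abundant in these libraries than that of *Gjd2* and *Gjc1*, the connexins chosen as neuronal. Levels of different genes were compared in TPM, in which the reads of a gene are taken relative to its length and all genes of a sample add up to a fixed total. Over the 8 samples *Gja1* had the highest mean, 43.8 ± 7.78 TPM (SD, n = 8), followed by *Gjb6* with 27.5 ± 5.41, *Gjc3* with 14.1 ± 3.59, *Gjb1* with 10.6 ± 2.49, *Gjd2* with 4.35 ± 1.97 and *Gjc1* with 3.65 ± 0.854 TPM. Each of the first 4 neighbours in this order was in the same order in 8 of 8 samples. These differences passed an exact sign-flip test over samples (two-sided, adjusted p = 0.00977 over 5 pairs of neighbours, unadjusted p = 0.0078, the smallest that 8 samples allow). The order and its neighbours were taken from the means of the same 8 samples, and the p values do not account for that choice. *Gja1* was 1.60 times as high as *Gjb6*, *Gjb6* was 1.98 times as high as *Gjc3*, *Gjc3* was 1.32 times as high as *Gjb1*, and *Gjb1* was 2.66 times as high as *Gjd2*. In CPM, which are not divided by length, the log2 ratio of *Gjb1* to *Gjd2* was 0.42 in place of 1.41 and did not pass the exact sign-flip test (adjusted p = 0.359). The other 3 of these ratios kept their direction in CPM and passed that test (adjusted p = 0.0130 each), but their size changed. In log2 they were 1.52 in place of 0.67 for *Gja1* to *Gjb6*, 0.46 in place of 0.98 for *Gjb6* to *Gjc3*, and 1.19 in place of 0.40 for *Gjc3* to *Gjb1*. *Gjd2* and *Gjc1* did not differ beyond their spread, with *Gjd2* the higher of the pair in 5 of 8 samples and a log2 ratio of 0.13 ± 1.03 (SD, n = 8, exact sign-flip test, adjusted p = 0.727). In CPM their log2 ratio was 0.81 ± 0.98 (SD, n = 8, exact sign-flip test, adjusted p = 0.0879). Among all 17495 genes tested, *Gja1* stood at percentile 75.1 of mean TPM and *Gjd2* at percentile 32.2.

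**Figure D1:**
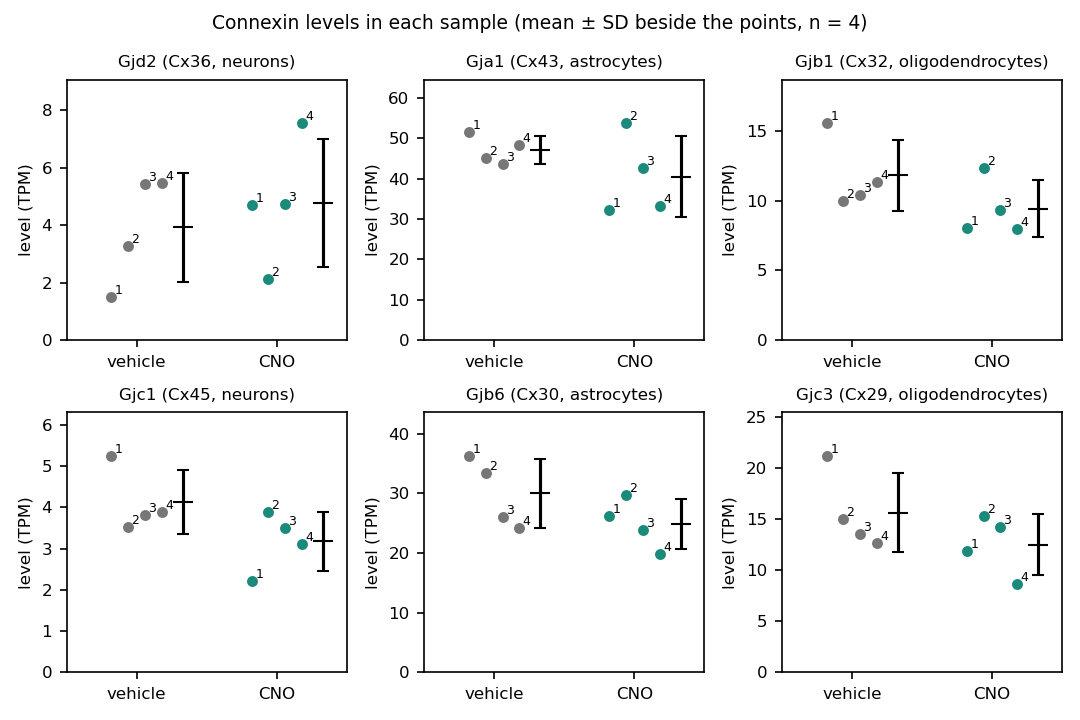
Level (TPM) of each of the 6 connexins in the 4 vehicle and 4 CNO samples, with points numbered by replicate and the mean ± SD (n = 4) beside them. The groups overlap in every panel, *Gjd2* spans from 1.52 to 7.55 TPM, and vehicle replicate 1 is the lowest sample for *Gjd2* and the highest for *Gjc1*, *Gjb6*, *Gjb1* and *Gjc3*.

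The composition of the pulldown was read from marker genes of each cell type. *Pvalb* had between 300.1 and 1160.4 TPM, so the gene that names the labelled cell type was present in every sample. *Gad1*, an enzyme of GABA synthesis and so not particular to PV+ interneurons, had a mean of 1227 TPM. Markers of other cells were present too, and 0 of the 84 marker genes listed was at 0 in all samples. The summed level of 12 pyramidal cell markers, led by *Nrgn*, *Slc17a7* and *Camk2a*, lay between 1452 and 2327 TPM. The 12 oligodendrocyte markers, which include the myelin genes *Mbp* and *Cnp*, summed to between 612 and 1088 TPM, and the 12 astrocyte markers, led by *Aldoc*, *Glul* and *Slc1a3*, to between 677 and 892 TPM. The 10 PV+ interneuron markers, led by *Gad1*, *Pvalb* and the potassium channel gene *Kcnc1*, summed to between 1203 and 3975 TPM. Genes of GABA synthesis in this list, such as *Gad1*, are shared with other interneurons, so its sum does not stand for PV+ interneurons alone. Vehicle replicate 1 stood apart, with 1203 TPM of PV+ interneuron markers against 2531 to 3975 TPM in the other 7 samples. In such pooled RNA from a pulldown, fewer cells of a type, less RNA per cell and a difference in the yield or the unspecific background of the pulldown cannot be told apart.

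*Gjd2* (ENSMUSG00000068615) lies on chromosome 2 of GRCm38 from 114009601 to 114013619 on the minus strand, with 2 exons. Its level was 1.52, 3.28, 5.44 and 5.47 TPM in vehicle replicates 1 to 4 and 4.71, 2.12, 4.75 and 7.55 TPM in CNO replicates 1 to 4. Vehicle replicate 1 and CNO replicate 2 were lowest, CNO replicate 4 was highest, and the groups overlapped. *Gjd2* was the most variable of the 6 connexins, 4.98 times as high in the highest as in the lowest sample, against 1.66 times for *Gja1*. In normalized CPM, which are reads scaled to library size without regard to length, *Gjd2* averaged 6.19 ± 3.08 over the 4 CNO samples and 4.82 ± 2.43 over the 4 vehicle samples (mean ± SD). The log2 fold change was 0.36 with a standard error of 0.44 (edgeR quasi-likelihood test, adjusted p = 0.836). The 95% interval ran from 0.653-fold to 2.51-fold, the widest of the 6 connexins. An exact permutation test of the log2 CPM (two-sided, 4 samples against 4) gave p = 0.600. The value depended on single samples, with a log2 fold change of 0.62 without CNO replicate 2, 0.071 without vehicle replicate 1 and 0.017 without CNO replicate 4.

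Samples with more PV+ interneuron markers tended to have more *Gjd2*. The markers summed to 1203, 2896, 3148 and 2965 TPM in vehicle replicates 1 to 4 and to 3526, 2531, 3078 and 3975 TPM in CNO replicates 1 to 4. The samples lowest in both measures were vehicle replicate 1 and CNO replicate 2, and the highest was CNO replicate 4. Across the 8 samples the correlation (Pearson) of log2 *Gjd2* with the mean log2 level of these markers was 0.92, and 0.93 over the 7 samples without vehicle replicate 1. With the markers of other cells it was -0.90 for pyramidal cells, -0.85 for astrocytes, -0.79 for oligodendrocytes and -0.88 for microglia. For other interneurons it was -0.49, for oligodendrocyte precursors -0.57, for endothelial cells 0.089 and for mural cells 0.17. Without vehicle replicate 1 it was -0.10 for endothelial cells, -0.22 for mural cells and -0.16 for other interneurons. It was then -0.83 for pyramidal cells, -0.74 for astrocytes, -0.67 for oligodendrocytes, -0.80 for microglia and -0.36 for oligodendrocyte precursors. These correlations are descriptions over 8 samples whose TPM values are shares of 1 total. Divided by the summed PV+ interneuron markers, *Gjd2* amounted to 0.140% ± 0.0444 for CNO and 0.149% ± 0.0347 for vehicle (SD, n = 4 each), and this share varied 2.27-fold over the 8 samples. The 5′ end of *Gjd2* overlaps 2 annotated noncoding genes on the plus strand, both named *A530058N18Rik*, at 22.7 to 33.6 TPM for the more abundant of them and 0.726 to 2.46 TPM for the other. Only 0.948% of its 31-nucleotide stretches occur in transcripts of other genes, and the library kit is not stated to keep the strand.

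*Gjc1* (ENSMUSG00000034520), on chromosome 11 from 102799579 to 102819700 on the minus strand, had 5.26, 3.52, 3.82 and 3.9 TPM in vehicle replicates 1 to 4 and 2.22, 3.88, 3.49 and 3.12 TPM in CNO replicates 1 to 4. Vehicle replicate 1 was the highest sample, the reverse of its place for *Gjd2*, and CNO replicate 1 was the lowest. Means over 4 samples were 2.60 ± 0.497 CPM for CNO and 2.99 ± 0.485 CPM for vehicle (± SD), and the log2 fold change was -0.20 (standard error 0.20, 95% interval 0.64-fold to 1.18-fold, edgeR adjusted p = 0.818). It was -0.076 without CNO replicate 1, -0.12 without vehicle replicate 1 and -0.32 without vehicle replicate 2. The ratio of *Gjd2* to *Gjc1* was 0.289 in vehicle replicate 1 and 0.545 in CNO replicate 2, and reached 2.42 in CNO replicate 4. The correlation of *Gjc1* with the mean log2 level of PV+ interneuron markers was -0.76, whereas those with other interneuron markers and with astrocyte markers were 0.86 each, that with oligodendrocyte markers 0.84 and that with mural cell markers 0.30, over 8 samples. Without vehicle replicate 1 the value was -0.54 for PV+ interneuron, 0.79 for other interneuron, 0.77 for astrocyte, 0.75 for oligodendrocyte and 0.86 for mural cell markers. The correlation of *Gjc1* with *Gjd2* was -0.59.

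*Gja1* (ENSMUSG00000050953), on chromosome 10 from 56377330 to 56402513 on the plus strand, had 51.5, 45, 43.5 and 48.3 TPM in vehicle replicates 1 to 4 and 32.3, 53.7, 42.6 and 33.3 TPM in CNO replicates 1 to 4. The vehicle samples lay close together, whereas CNO replicates 1 and 4 were low and CNO replicate 2 was the highest of all. Means over 4 samples were 55.4 ± 11.1 CPM for CNO and 61.8 ± 2.33 CPM for vehicle (± SD), and the log2 fold change was -0.16 (standard error 0.13, 95% interval 0.73-fold to 1.10-fold, edgeR adjusted p = 0.817). *Gjb6* (ENSMUSG00000040055), on chromosome 14 from 57123303 to 57133611 on the minus strand, had 36.3, 33.4, 26.1 and 24.3 TPM in vehicle replicates 1 to 4 and 26.2, 29.8, 23.9 and 19.8 TPM in CNO replicates 1 to 4. Vehicle replicates 1 and 2 were the highest samples and CNO replicate 4 the lowest. Its log2 fold change was -0.10 (standard error 0.13, 95% interval 0.77-fold to 1.13-fold, edgeR adjusted p = 0.832), between means of 19.7 ± 2.19 CPM for CNO and 21.1 ± 3.02 CPM for vehicle (± SD, 4 samples each). Single samples set much of these values, which were -0.069 for *Gja1* without CNO replicate 1, -0.28 without CNO replicate 2, and -0.025 for *Gjb6* without vehicle replicate 1. Without CNO replicate 2, 9.62% of all genes had an unadjusted p under 0.05 in edgeR's quasi-likelihood test, among them *Gja1* (0.0293) and *Gjb1* (0.0414).

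These astrocyte genes did not vary in strict proportion. The ratio of *Gja1* to *Gjb6* ranged from 1.23 in CNO replicate 1 to 1.99 in vehicle replicate 4, with a mean of 1.63 ± 0.268 for CNO and 1.61 ± 0.292 for vehicle (SD, n = 4 each). *Gja1* followed the mean log2 level of astrocyte markers (r = 0.93 over 8 samples, 0.96 over the 7 without vehicle replicate 1) and equally that of oligodendrocyte markers (0.96). *Gjb6* followed pyramidal cell markers (0.96) at least as closely as astrocyte markers (0.79). Divided by the summed astrocyte markers, *Gja1* was 5.44% ± 0.954 for CNO and 5.88% ± 0.522 for vehicle (SD, n = 4 each), and *Gjb6* was 3.38% ± 0.508 and 3.71% ± 0.355 in the same order. The most abundant gene of that list, *Aldoc*, had a mean of 277 TPM and its log2 fold change, 0.098 (standard error 0.14), was opposite in sign to those of *Gja1* and *Gjb6*. Neither difference between the groups exceeded the SD of the CNO samples.

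*Gjc3* (ENSMUSG00000056966), on chromosome 5 from 137953461 to 137963098 on the minus strand, had 21.2, 15, 13.5 and 12.7 TPM in vehicle replicates 1 to 4 and 11.9, 15.3, 14.2 and 8.61 TPM in CNO replicates 1 to 4. Vehicle replicate 1 stood above all other samples and CNO replicate 4 below them. The log2 fold change was -0.27 (standard error 0.17, 95% interval 0.64-fold to 1.07-fold, edgeR adjusted p = 0.817), between means of 13.6 ± 2.27 CPM for CNO and 16.4 ± 3.73 CPM for vehicle (± SD, 4 samples each). It was -0.11 without vehicle replicate 1. *Gjb1* (ENSMUSG00000047797), on chromosome X from 101376378 to 101385629 on the plus strand, had 15.5, 9.99, 10.4 and 11.3 TPM in vehicle replicates 1 to 4 and 8.04, 12.3, 9.31 and 7.95 TPM in CNO replicates 1 to 4. Vehicle replicate 1 was again the highest, and 3 of the 4 CNO samples lay below the lowest vehicle sample in normalized CPM. Its log2 fold change was -0.27 (standard error 0.16, 95% interval 0.65-fold to 1.07-fold, edgeR adjusted p = 0.817), between means of 5.95 ± 0.993 CPM for CNO and 7.16 ± 1.28 CPM for vehicle (± SD, 4 samples each), and it was -0.14 without vehicle replicate 1. In *Gjc3*, 7.11% of the 31-nucleotide stretches also occur in transcripts of other genes, the highest share among the 6 connexins, and in *Gjb6* and *Gjb1* 0% do.

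*Gjb1* correlated with the mean log2 level of oligodendrocyte markers at 0.95 over 8 samples and at 0.96 without vehicle replicate 1, and *Gjc3* at 0.90 and 0.86. For *Gjc3* the correlations with pyramidal cell markers (0.94) and microglia markers (0.92) were as high over the 8 samples, and for *Gjb1* those with astrocyte markers (0.93) and microglia markers (0.91) were close to it. With PV+ interneuron markers the correlation was -0.91 for *Gjb1* and -0.90 for *Gjc3*, with endothelial markers 0.19 and 0.0043, and with mural cell markers 0.099 and -0.056, in the same order. The vascular values depended on 1 sample. Without vehicle replicate 1 they were 0.53 and 0.23 with endothelial markers and 0.69 and 0.39 with mural cell markers. With PV+ interneuron markers the values were then -0.87 for each gene. *Gjb1* amounted to 1.19% ± 0.0878 (SD, n = 4) of the summed oligodendrocyte markers with CNO and to 1.25% ± 0.126 (SD, n = 4) with vehicle. This share varied 1.29-fold over the 8 samples, whereas *Gjb1* itself varied 1.95-fold. For *Gjc3* the share was 1.58% ± 0.204 for CNO and 1.66% ± 0.258 for vehicle (SD, n = 4 each). The ratio of *Gjc3* to *Gjb1* lay between 1.08 and 1.52, with means of 1.33 and 1.32 in CNO and vehicle samples.

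**Figure D2:**
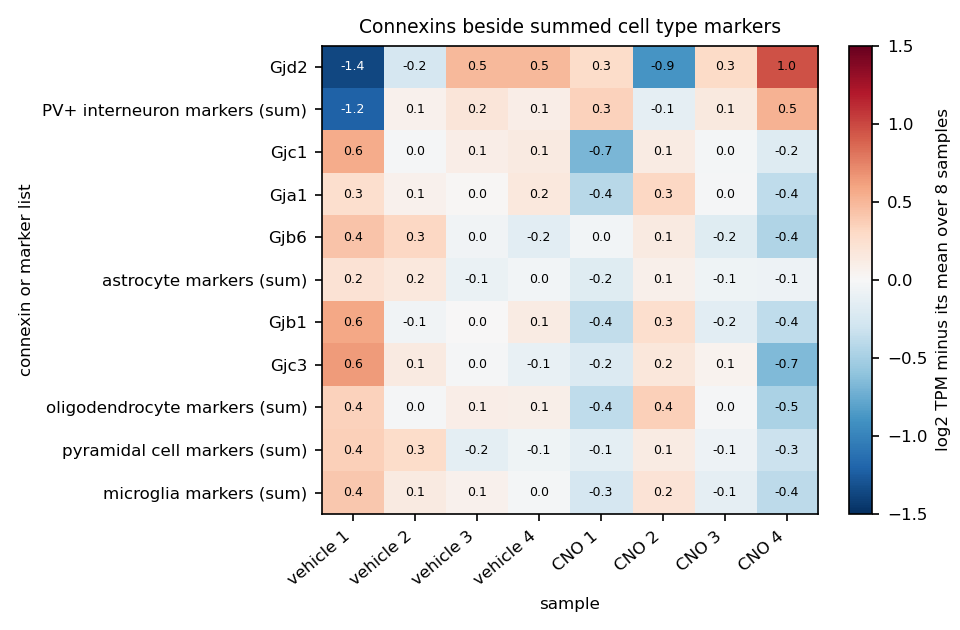
Log2 TPM of each connexin and of the summed markers of 5 cell types (rows) in each sample (columns), as the difference from the row's mean over the 8 samples. *Gjd2* and the PV+ interneuron markers are lowest in vehicle replicate 1 and highest in CNO replicate 4, where *Gjb6*, *Gjb1*, *Gjc3* and the pyramidal cell markers have the opposite order.

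**Figure D3:**
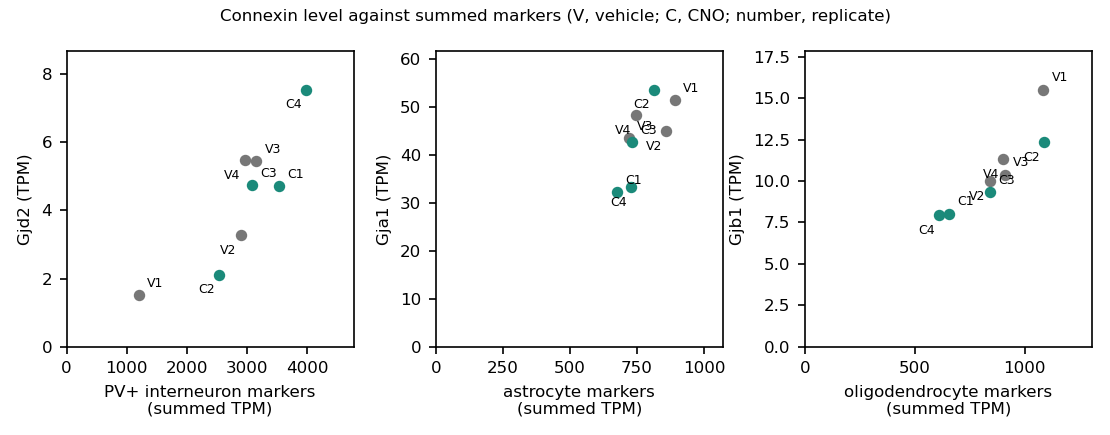
*Gjd2* against the summed PV+ interneuron markers, *Gja1* against the summed astrocyte markers and *Gjb1* against the summed oligodendrocyte markers, all in TPM, with 1 point for each of the 8 samples. *Gjd2* and its markers are both lowest in vehicle replicate 1 (1.52 and 1203 TPM), and *Gjb1* is lowest in CNO replicates 1 and 4, the samples with the fewest oligodendrocyte markers.

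CNO was compared with vehicle in 1 fit across all 17495 genes, to ask which ribosome-associated mRNAs change when PV+ interneurons are activated. Of the 6 connexins, 0 passed an adjusted p under 0.05 in the edgeR quasi-likelihood test, where 0% of all genes did so with the further cut-offs of 1.5-fold and a mean of 1 TPM. At an unadjusted p under 0.05 there were 0 of the 6 connexins against 716 of all genes, 4.09%, and 464 of all genes, 2.65%, were at such a p and lower with CNO. With edgeR's likelihood ratio test with robust dispersion 0 of the 6 connexins and 12 of all genes (0.0686%) were called, and with DESeq2's Wald test 0 connexins and 10 of all genes (0.0572%). The CNO and vehicle samples overlapped in all 6 connexins, and did not overlap in 2.42% of all genes. The fold change was below 0 in 5 of the 6 (49.6% of all genes) and above 0 in *Gjd2*. The median log2 fold change was -0.13 for the astrocyte pair and -0.27 for the oligodendrocyte pair, against 0.0014 over all genes tested. *Fos*, an immediate early gene of active neurons, was higher in 4 of 4 CNO samples than in any vehicle sample and had the smallest adjusted p of all genes, 0.0520 in edgeR's quasi-likelihood test.

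Most marker genes of a cell type lay on the same side as *Gjd2* or the glial connexins assigned to that type. Of the PV+ interneuron markers, 10 of 10 had a fold change above 0 (median log2 0.46), as *Gjd2* had, and without vehicle replicate 1 it was 9 of 10 with a median of 0.23. *Gjc1*, also chosen as a neuronal connexin, lay on the other side (log2 fold change -0.20). Of the oligodendrocyte markers 12 of 12 lay below 0 (median -0.23), of the astrocyte markers 9 of 12 (median -0.095), of the pyramidal cell markers 11 of 12 (median -0.13) and of the microglia markers 9 of 9 (median -0.24), while endothelial markers lay above 0 in 8 of 8 (median 0.34). The summed PV+ interneuron markers were 3278 ± 618 TPM for CNO and 2553 ± 906 TPM for vehicle (SD, n = 4 each), or 3003 ± 130 TPM over the 3 vehicle samples without replicate 1, and the summed oligodendrocyte markers were 799 ± 217 and 935 ± 105 TPM. Of the other interneuron markers 6 of 9 lay below 0 (median -0.18). An unadjusted p under 0.05 in edgeR's test, which 4.09% of all genes had, was found for 2 of 9 other interneuron, 1 of 10 PV+ interneuron, 1 of 9 microglia and 1 of 6 oligodendrocyte precursor markers, and for 0 of the pyramidal cell, astrocyte, oligodendrocyte, endothelial and mural cell markers. These counts depended on single samples. Without CNO replicate 1, where 496 of all genes had such a p, 5 of 8 endothelial and 2 of 6 mural cell markers had it. Without CNO replicate 2, where 9.62% of all genes had it, so did 5 of 12 oligodendrocyte and 3 of 12 astrocyte markers. In that fit 3 of 9 microglia and 3 of 10 PV+ interneuron markers had it too, and 0 of the endothelial and mural cell markers. With single samples left out, the median of the oligodendrocyte markers ranged from -0.31 (without CNO replicate 2) to -0.15 (without CNO replicate 1 or 4, with 11 and 10 of 12 below 0). It ranged from -0.34 (without CNO replicate 2) to -0.15 (without CNO replicate 1) for microglia markers, and from -0.24 (without CNO replicate 3) to -0.12 (without CNO replicate 4) for other interneuron markers. The range was -0.16 (without CNO replicate 2) to -0.051 (without CNO replicate 1) for astrocyte markers, and 0.12 (without CNO replicate 3) to 0.60 (without CNO replicate 1) for endothelial markers. Adjusted over all genes, 0 of these markers passed 0.05. The part of the cell composition in the connexin values was not tested.

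**Figure D4:**
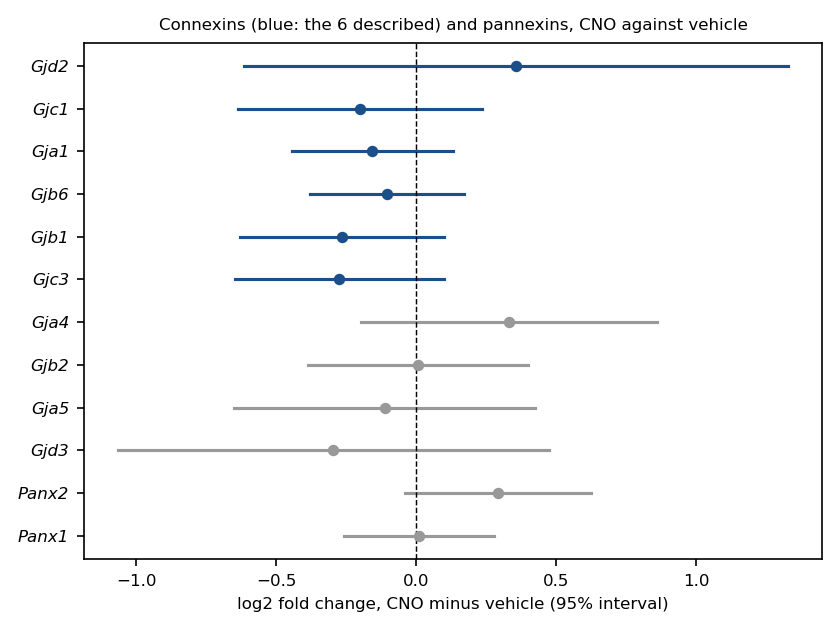
Log2 fold change of CNO against vehicle with its 95% interval from edgeR's quasi-likelihood fit, for the 6 connexins (blue), 4 other connexins tested and 2 pannexins (grey). Every interval includes 0, and that of *Gjd2* is the widest, from -0.62 to 1.33.

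Of the 14 other connexin genes 5 were tested, and 9 were left out for low counts. The connexins of blood vessels, *Gja4* (Cx37) and *Gja5* (Cx40), had 3.33 ± 0.967 and 2.33 ± 0.669 TPM (SD, n = 8), with log2 fold changes of 0.33 (standard error 0.24) and -0.11 (0.24). *Gjb2* (Cx26) had 2.75 ± 0.495 TPM and *Gjd3* 1.77 ± 0.745 TPM (SD, n = 8), with log2 fold changes of 0.0067 (standard error 0.18) and -0.30 (0.35). The adjusted p of these 4 genes lay between 0.817 and 0.994 in edgeR's test. *Gja3*, *Gja6*, *Gja10*, *Gjb5*, *Gjd4* and *Gje1* had at most 16 reads in any sample.

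Pannexins form large channels in the membrane of single cells and are relatives of the connexins in shape only. *Panx2* had 24.9 ± 3.93 TPM and *Panx1* 13.5 ± 2.53 TPM (SD, n = 8), both above *Gjd2*, and *Panx3* was listed at 0 in all samples. For *Panx2* the log2 fold change of CNO against vehicle was 0.29 (standard error 0.15, edgeR unadjusted p = 0.0803, adjusted p = 0.817), and for *Panx1* it was 0.0098 (0.12). Of the proteins that bind connexins or stand beside them at junctions, *Tjp1* encodes the scaffold ZO-1, *Mpdz* a scaffold with many PDZ domains, *Mllt4* afadin, and *Cnst* consortin, which takes part in the transport of connexins. Of 7 names listed 6 are in the table, the other (*Afdn*) being another name of *Mllt4*, and of these 5 were tested and *Tjp3* was left out for low counts. The log2 fold changes were -0.043 for *Tjp1*, -0.015 for *Mllt4*, 0.0043 for *Mpdz* and 0.023 for *Cnst*, and 0 of 5 passed the test. *Tjp1* had 18.7 ± 2.50 TPM and *Mllt4* 75.8 ± 17.8 TPM (SD, n = 8).

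FOS proteins bind DNA as part of AP-1, and since *Fos* was the gene with the smallest adjusted p, the promoter windows of the connexins were searched for the letters of an AP-1 site (TGACTCA or TGAGTCA, each the reverse complement of the other) and of a cyclic AMP response element (TGACGTCA, the same on both strands). The windows are RefSeq sequences of GRCm38.p6 from 250 bases before to 50 after an annotated start. They matched 5 of the 6 connexins, with 4 windows for *Gjb1*, and *Gjc1* had no entry. Of all 32851 windows 5.20% hold the AP-1 letters and 1.79% the element letters. Of the connexin windows, that of *Gja1* holds the AP-1 letters once, 19 bases before the start, and none of those of *Gjd2*, *Gjb6*, *Gjb1* and *Gjc3* holds either. The windows of *Gja1* (chr10:56377050-56377349, plus strand) and *Gjd2* (chr2:114013570-114013869, minus strand) are shown as the connexin with the match and the neuronal connexin of electrical synapses, with the AP-1 letters in capitals.
*Gja1*: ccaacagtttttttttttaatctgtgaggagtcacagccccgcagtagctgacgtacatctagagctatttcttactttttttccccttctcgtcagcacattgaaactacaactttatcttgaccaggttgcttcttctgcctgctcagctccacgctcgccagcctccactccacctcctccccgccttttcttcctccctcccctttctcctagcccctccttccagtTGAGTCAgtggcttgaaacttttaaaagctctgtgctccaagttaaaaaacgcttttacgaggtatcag
*Gjd2*: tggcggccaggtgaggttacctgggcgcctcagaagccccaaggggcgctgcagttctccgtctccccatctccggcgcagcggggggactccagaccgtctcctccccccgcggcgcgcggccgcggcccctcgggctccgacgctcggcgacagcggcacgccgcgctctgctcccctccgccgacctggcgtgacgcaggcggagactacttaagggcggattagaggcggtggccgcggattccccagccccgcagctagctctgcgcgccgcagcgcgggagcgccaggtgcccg
The match is of letters only. *Gja1* with its match had a log2 fold change of -0.16, and *Gjd2* without one had 0.36, neither past the test. The *Gjd2* window is made of G and C to 75.0%, that of *Gja1* to 47.7%.

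Genes with the most similar profile were named for each connexin, by the highest Pearson correlation of log2 CPM over the 8 samples among 15173 genes with a mean above 1 TPM. These are the highest of 15173 correlations over only 8 points, which share library and cell composition, and are given as a description. They were *Sh2b1*, *Ergic1* and *Prkacb* for *Gjd2* (0.99 each), *Tmem164*, *Nup210* and *Nr4a2* for *Gjc1* (0.94 to 0.97), and *Pdzd7* and *Gbp4* for *Gja1* (0.97 each). For *Gjb6* they were *4931440F15Rik*, *Gm27022* and *6430590A07Rik* (0.99 to 1.00), for *Gjb1* *Slc9b2*, *Gabrg1* and *Senp7* (0.98 to 0.99), and for *Gjc3* *Arpp19*, *Mettl13* and *Platr14* (0.97 to 0.98). Among the connexins the highest correlations of log2 TPM were those of *Gjb6* with *Gjc3* and of *Gja1* with *Gjb1* (0.90 each), ahead of those within the pairs *Gja1* and *Gjb6* (0.63) and *Gjb1* and *Gjc3* (0.86). *Gjd2* correlated below 0 with each of the other 5, from -0.59 with *Gjc1* to -0.89 with *Gjb6*. *Gjd2* and *Gjc1* together made up 8.01% ± 2.66 of the summed TPM of the 6 connexins (SD, n = 8), from 5.12% in CNO replicate 2 to 13.3% in CNO replicate 4.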

How the data were processed

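Reads had gone through FastQC and Trim Galore, STAR on GRCm38/mm10, and Salmon with tximport. The authors deposited the resulting estimated counts per gene, and TPM values. Whether tximport rescaled the counts is not given in the sources used here. Counts were rounded to whole numbers. A gene was dropped if 4 or more samples had fewer than 10 reads, as in the study, and CNO was compared with vehicle in R 4.3.3 with edgeR 4.0.16 (TMM, quasi-likelihood test, Benjamini-Hochberg adjustment over 17495 genes), after a test on simulated data. The study names edgeR's estimateGLMRobustDisp in its methods and a two-sided Wald test elsewhere. That dispersion with the likelihood ratio test was an alternative, as were the Wald test of DESeq2 1.42.0 and limma 3.58.1 on log2 TPM. Leaving out samples for the marker lists was added after seeing the data. Log2 CPM of single samples used a prior count of 2. 3 counts correspond to 0.0607 to 0.0681 CPM, which covers counting error only. Each sample pooled 4 brains, and replicates are numbered 1 to 4 in the labels. The connexins and all lists were chosen with earlier results of these data known, and the ratio of *Gjd2* to PV+ interneuron markers and the correlations with mean log2 marker levels after values were seen. Named were all listed connexins, pannexins and partner genes, the 3 most abundant genes of the marker lists shown, and the 3 most similar genes of each connexin. Some genes that this rule names are not reported here. Gene positions and shared 31-nucleotide stretches came from GENCODE M21 (GRCm38), where 45143 of the 45706 identifiers were found. Single values were compared by exact permutation over the 70 assignments of 4 against 4 samples.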

Additional observations from a re-analysis of the deposited data

Results flagged for a closer look

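A sample was singled out where its distance to the nearest other sample took up an unusually large part of the spread among the 4 samples of its group (Dixon's ratio, 95% limit). This held for 2 of 20 sets of values, where chance alone singles out about 1 in 20. Vehicle replicate 1 was far above the other vehicle samples in *Gjc3* (0.873, log2 CPM) and far below them in the summed PV+ interneuron markers (0.913, log2 TPM). It had 22.0 CPM of *Gjc3* against 14.1 to 14.9 CPM in the other vehicle samples, and its *Gjd2* level of 1.74 CPM was the lowest of the 8 samples. Without this sample the log2 fold change of *Gjc3* between CNO and vehicle was -0.11 in place of -0.27.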

How the results depend on the processing

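The direction of each of the 6 connexins' fold changes stayed the same under all 18 alternatives tried for it, 10 of other tests, scalings, filters, units and blocks and 8 that left out 1 sample, and 0 connexins were called under any of them, nor with the adjusted p as the only cut-off. Over all alternatives the log2 fold change ranged from 0.017 to 0.62 for *Gjd2*, -0.38 to -0.076 for *Gjc1*, -0.28 to -0.069 for *Gja1*, -0.26 to -0.025 for *Gjb6*, -0.38 to -0.14 for *Gjb1* and -0.36 to -0.11 for *Gjc3*, and the smallest adjusted p was 0.472. Leaving out CNO replicate 2 gave unadjusted p values of 0.0293 for *Gja1* and 0.0414 for *Gjb1* in edgeR's quasi-likelihood test, the lowest of any connexin, in a fit where 1683 of 17495 genes lay under 0.05 against 716 with all samples. The count of all genes called was 0, and it was 12 with robust dispersion and the likelihood ratio test, 10 with DESeq2's Wald test, 4 with no filter on low counts, 3 with a block of replicates 1 and 2 against 3 and 4, and 0 to 2 with samples left out in turn. Samples with the same replicate number correlated from -0.030 to 0.24 across genes, as deviations from their group's mean. These values cannot decide whether the numbers pair the samples. Each replicate 1 or 2 correlated below 0 with each replicate 3 or 4 of the other group, from -0.40 to -0.045. Within replicates 1 and 2, or 3 and 4, the values were mostly above 0, up to 0.43. With a block for this split 1193 genes had an unadjusted p under 0.05 in edgeR's quasi-likelihood test, against 716 without it. The standard error of *Gjd2* was then 0.31 in place of 0.44. What lies behind this split was not tested. With a replicate block 0 genes were called, and the log2 fold change of *Gjd2* was 0.37. Of the 5 pairs of neighbours in the order of levels, 4 passed the test, and 3 with CPM in place of TPM, where the log2 ratio of *Gjb1* to *Gjd2* was 0.42. The log2 ratio of *Gjd2* to *Gjc1* turned from 0.13 to -0.0070 without CNO replicate 1 and to -0.034 without CNO replicate 4, and was at most 0.40 (without vehicle replicate 1) when samples were left out. At the depth of these libraries the connexins had 78 or more reads in each sample, and the width of the intervals sets what differences could be detected.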
